A study of Mus musculus with 847 samples.

Results

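The 5 genes described here, H2-Q4, H2-Q6, H2-Q7, H2-T22 and H2-T23, encode mouse nonclassical major histocompatibility complex (MHC) class I heavy chains. They were 5 of the 21076 genes in the count table. They were selected on their change with age, whose values in these same libraries were already known, so levels and slopes over age are given as a description, and where their calls in a fit are counted nothing is read from the count. H2-Q6 and H2-Q7 are close copies, and the sum of their reads is given beside each of them. RNA was sequenced from 15 dissected brain regions of 59 C57BL/6JN mice, with 847 libraries in all and 51 to 59 for each region. The groups of 3, 12, 15 and 18 months held 5 mice of each sex, and that of 21 months 5 females with 6 males. Above that age there were males alone, 5 mice aged 26 months and 3 aged 28 months. The labels name no genotype beyond the strain and no treatment, so every group was of untreated mice as far as the labels say. The cDNA was made by Smart-Seq2 from RNA of homogenized tissue and tagmented with Nextera XT, without marking strand. Each mouse is a separate animal, and its regions share that animal.

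Class I heavy chains pair with beta-2-microglobulin at the cell surface and are read by receptors of T cells and natural killer (NK) cells. The classical chains H2-K and H2-D present varied peptides to CD8 T cells, whereas the nonclassical chains vary little between individuals and show fewer ligands to fewer receptors. In the brain most neurons carry little class I, microglia and endothelium carry more, and interferon raises it, in part through IRF1 and the transactivator NLRC5. H2-Q6 and H2-Q7 encode the lipid-anchored Qa-2 antigen, H2-T23 encodes Qa-1, the ligand of the CD94/NKG2 receptors, H2-T22 encodes a chain bound by some gamma delta T cell receptors, and H2-Q4 encodes the Qb-1 chain.

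All 5 genes lie on chromosome 17. On GRCm38, H2-Q4 spans chr17:35379617-35385290, H2-Q6 chr17:35424850-35430055 and H2-Q7 chr17:35439155-35443773, all on the plus strand, and H2-T23 spans chr17:36029773-36032855 and H2-T22 chr17:36037128-36042747 on the minus strand. The promoter windows are shown because the members' levels varied together across libraries to differing degrees, most closely for H2-Q6 and H2-Q7, as described further on. Each holds 250 bases before the start site and 50 from it, 5′ to 3′ along the gene's strand, from RefSeq on GRCm38.p6, and all 5 genes had an entry. Capitals mark matches, on either strand, to 4 motifs chosen after the sequences had been seen: GGGATTNCC (the kappa-B element of the class I enhancer A), GTTTCACTT (the core of the class I interferon-stimulated response element), GAAANNGAA (a general form of that element) and CCAAT (the Y box).
H2-Q4, chr17:35379367-35379666, plus strand: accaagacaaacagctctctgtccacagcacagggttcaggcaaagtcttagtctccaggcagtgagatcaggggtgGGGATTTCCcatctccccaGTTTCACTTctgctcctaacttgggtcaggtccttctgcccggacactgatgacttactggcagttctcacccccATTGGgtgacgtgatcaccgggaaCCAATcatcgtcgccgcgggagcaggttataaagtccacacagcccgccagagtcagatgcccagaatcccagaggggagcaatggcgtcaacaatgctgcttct
H2-Q6, chr17:35424600-35424899, plus strand: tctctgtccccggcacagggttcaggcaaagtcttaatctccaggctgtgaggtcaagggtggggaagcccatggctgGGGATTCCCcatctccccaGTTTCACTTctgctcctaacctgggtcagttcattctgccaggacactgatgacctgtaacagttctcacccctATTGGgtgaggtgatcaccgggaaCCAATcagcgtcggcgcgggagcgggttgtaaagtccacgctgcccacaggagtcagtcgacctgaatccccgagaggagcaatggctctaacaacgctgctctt
H2-Q7, chr17:35438905-35439204, plus strand: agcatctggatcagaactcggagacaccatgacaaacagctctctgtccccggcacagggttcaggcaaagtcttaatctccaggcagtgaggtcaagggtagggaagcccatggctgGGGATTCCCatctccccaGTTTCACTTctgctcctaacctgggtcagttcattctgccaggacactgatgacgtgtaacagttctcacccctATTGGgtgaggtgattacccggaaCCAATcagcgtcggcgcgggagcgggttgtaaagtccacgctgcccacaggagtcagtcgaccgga
H2-T22, chr17:36042693-36042992, minus strand: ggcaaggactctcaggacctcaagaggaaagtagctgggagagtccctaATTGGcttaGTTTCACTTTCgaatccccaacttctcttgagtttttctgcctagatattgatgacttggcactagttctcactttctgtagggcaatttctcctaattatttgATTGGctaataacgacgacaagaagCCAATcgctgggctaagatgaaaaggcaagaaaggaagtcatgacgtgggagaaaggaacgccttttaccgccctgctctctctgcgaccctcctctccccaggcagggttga
H2-T23, chr17:36032652-36032951, minus strand: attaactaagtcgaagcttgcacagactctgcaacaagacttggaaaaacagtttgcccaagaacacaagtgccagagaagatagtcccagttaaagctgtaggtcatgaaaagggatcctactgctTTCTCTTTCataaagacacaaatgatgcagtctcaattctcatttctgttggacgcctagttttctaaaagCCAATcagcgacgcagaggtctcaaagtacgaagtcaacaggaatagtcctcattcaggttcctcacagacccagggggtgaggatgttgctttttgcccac

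The H2-Q6 and H2-Q7 windows were 97.3% identical over 261 aligned columns, H2-Q4 and H2-Q6 82.6%, and H2-T22 and H2-T23 53.1%. GGGATTNCC stood in 3 of the 5 windows (H2-Q4, H2-Q6 and H2-Q7) and in 0.94% of 32851 mouse promoter windows of the same length. GTTTCACTT stood in 4 of 5, all but H2-T23, and in 0.4% of all windows. H2-T22 and H2-T23 held GAAANNGAA on the other strand, a motif found in 8.56% of all windows, and in H2-T22 this match overlapped GTTTCACTT. CCAAT stood in all 5 windows and in 37.41% of all windows. The short letters TGACG, the core of the cyclic AMP element in the X2 box, left in lower case, stood in H2-Q4, H2-Q7 and H2-T22 and in 20.81% of all windows. In H2-Q7 they came before both CCAAT matches, as in H2-D1 and H2-K1. In H2-Q4 and H2-T22 they came after the first CCAAT match, so the letters there are not placed as in H2-Q7. A match describes the letters and not a bound site, and the windows without one say nothing about a factor.

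Levels are given as CPM, the reads of a gene per 1000000 reads counted in its library. Over all 847 libraries the median was 20.5 CPM for H2-T22, 7.75 for H2-T23, 2.59 for H2-Q6, 2.11 for H2-Q7 and 0.079 for H2-Q4. Divided by the length of the exons, the median level was 6.00 CPM per kilobase for H2-T22, 2.68 for H2-T23, 1.24 for H2-Q6, 0.495 for H2-Q7 and 0.03 for H2-Q4. On the same per-kilobase scale the classical chains stood above all 5, at 14.4 for H2-K1 and 40.9 for H2-D1. H2-Q4 had no read in 410 of 847 libraries (48.41%) and 1104 reads in all, and it passed the filter on low counts in 0 of 15 regions. The other 4 genes and the H2-Q6 plus H2-Q7 sum passed it in 15 of 15 regions, and a gene can pass through the age or sex group in which it is high. H2-Q6 gave 55.48% of the reads of the H2-Q6 and H2-Q7 pair, between 52.35% and 57.95% at the 7 ages and between 52.3% and 58.12% in the 15 regions. Of the stretches of 100 bases in their transcripts, 89.2% of those of H2-Q6, 88.0% of H2-Q7, 91.1% of H2-T22, 96.8% of H2-T23 and 97.8% of H2-Q4 occurred in no other gene. At 50 bases the unique share was 68.0% for H2-Q6 and 65.5% for H2-T22, whose most frequent partner was H2-T10, a gene tested in 0 regions. H2-Q7 shared more with genes outside the pair (9.3% at 100 bases and 23.7% at 50, most often H2-Q10) than with H2-Q6 (3.4% and 6.3%), and H2-Q6 shared 26.0% outside the pair at 50 bases. How the authors counted reads that fit several genes is not given in the sources used here, so the split between H2-Q6 and H2-Q7 is uncertain, part of their sum could come from other class I genes, and part of the H2-T22 reads could come from H2-T10.

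The smallest library held 481444 counted reads, the median library 6716032 and the largest 26756735, while 10 libraries fell short of 1000000. In 6 libraries the marker of the labelled region was no higher than the median of the other regions: Prox1 in posterior hippocampus of mice 33, 41 and 55, Pmch in hypothalamus of mouse 16, Slc6a5 in pons of mouse 43 and Tbr1 in entorhinal cortex of mouse 52. Another 3 libraries held the highest level of their region for all 4 of H2-Q6, H2-Q7, H2-T22 and H2-T23. They were posterior hippocampus of mouse 5 (male, 26 months), olfactory bulb of mouse 33 (male, 3 months) and subventricular zone of mouse 59 (male, 28 months). These 3 libraries were picked out after their values had been seen. Fitted slopes and differences named here that turn direction or move by over 1.5 times without them are given both ways. Correlations between genes and shares of variance between mice were not recomputed without them. Without the 6 or without the 3 libraries each member had the same number of regions with a sex call. The marker check finds a missing marker only, and tissue of another region in a library was not tested. Ttr, the choroid plexus marker, reached 16910 CPM in a library of another region, against a median of 5464 CPM in choroid plexus.

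In olfactory bulb the library of mouse 33 held 25.5 CPM of H2-Q6 plus H2-Q7, against 0.452 to 6.10 CPM in the 9 other 3-month libraries of the region. Its H2-T23 was 31.0 CPM against at most 16.3 in the 57 other olfactory bulb libraries, its H2-T22 38.6 against at most 28.3 and its H2-K1 197 against at most 122. Nlrc5, the class I transactivator, stood at 13.9 CPM there against at most 5.20. So these class I genes and Nlrc5 were above all other libraries of the region in a young mouse. Posterior hippocampus of mouse 5 held 18.8 CPM of the sum against at most 11.7 elsewhere in the region, and 18.5 CPM of H2-T23 against at most 12.1. The interferon-induced gene Ifit1 was 52.5 CPM in that library against at most 15.9. Subventricular zone of mouse 59 held 21.2 CPM of the sum against at most 16.8 and 29.3 CPM of H2-T23 against at most 16.5.

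Averaged over a mouse's regions, all 5 genes stood higher in old than in young mice, most steeply H2-Q6 and H2-Q7. The H2-Q6 plus H2-Q7 sum was 1.17, 2.10 and 3.48 CPM (lowest, median and highest of 10 mice) at 3 months and 2.41, 3.50 and 4.51 CPM at 12 months. It was 3.12, 5.51 and 9.74 CPM at 15 months, 4.03, 6.77 and 9.14 CPM at 18 months, and 3.56, 7.39 and 12.9 CPM over 11 mice at 21 months. The 5 mice of 26 months had 4.95, 7.91 and 15.3 CPM, and the 3 mice of 28 months 7.19, 7.96 and 10.3 CPM. Every mouse of 18 months or older was above every mouse of 3 months, and the ranges of the ages from 15 to 28 months overlapped. H2-T23 was 6.84, 7.35 and 9.65 CPM in the 10 mice of 3 months and 9.38, 11.7 and 13.8 CPM in the 3 mice of 28 months. These groups overlapped, since the highest 3-month mouse was above the lowest 28-month mouse. H2-T22 was 18.0, 18.4 and 20.6 CPM at 3 months and 21.8, 22.9 and 23.3 CPM at 28 months, with no overlap. H2-Q4 was 0.052, 0.107 and 0.153 CPM at 3 months, from 135 reads over all libraries of that age, and 0.207, 0.298 and 0.322 CPM at 28 months, from 91 reads, with no overlap. In bulk tissue, more cells of a type and more RNA per cell cannot be told apart.

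**Figure D1:**
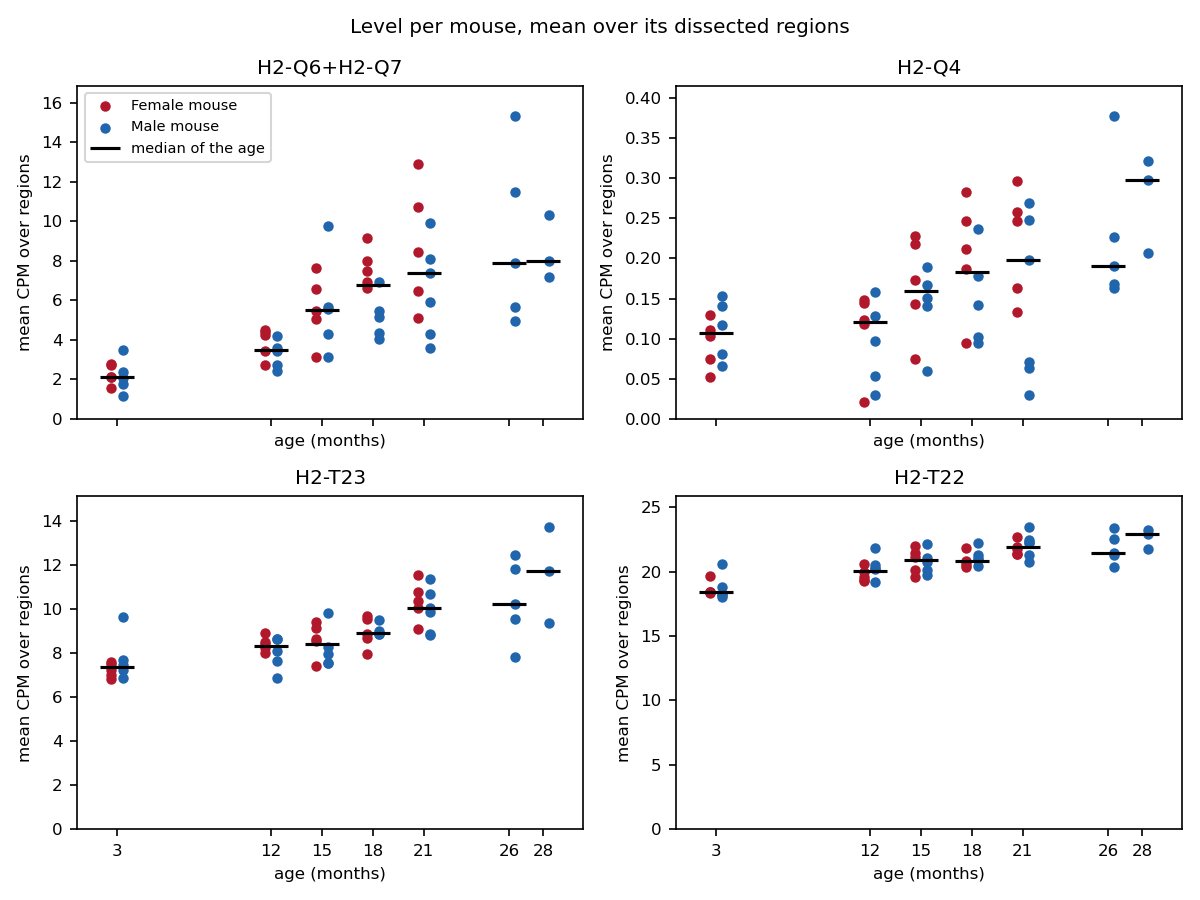
Mean CPM over the regions of each mouse (vertical axis) by age in months (horizontal axis) for H2-Q6 plus H2-Q7, H2-Q4, H2-T23 and H2-T22. Each point is a mouse, coloured by sex, and the short black lines are the medians of each age, which for the H2-Q6 plus H2-Q7 sum go from 2.10 CPM at 3 months to 7.96 CPM at 28 months.

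Within each region the slope was fitted over all ages beside sex with edgeR's quasi-likelihood model and is given as log2 units per month. H2-Q6 was called rising in 15 of 15 regions, H2-Q7 in 13, their sum in 14, and H2-T22 and H2-T23 in 9 each, where 5.88% of the 214677 gene and region pairs tested were called rising and 4.67% falling at an adjusted p below 0.05. This contrast chose the genes, and nothing is read from these counts. The mean slope over the 15 regions was 0.0964 for H2-Q6, 0.0903 for H2-Q7 and 0.0944 for the sum, the last being a 5.13-fold fitted difference over 25 months. For H2-T23 it was 0.0252 (1.55-fold) and for H2-T22 0.0108 (1.21-fold). Mice numbered 16 to 56 held the ages of 3, 15, 18 and 21 months, while 12 and 26 months came from mice 1 to 15 and 28 months from mice 57 to 59. Within mice 16 to 56 alone the mean slope was 0.102 for the sum, 0.0232 for H2-T23 and 0.0123 for H2-T22.

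Corpus callosum had the steepest slope of the sum, 0.138 (SE 0.013) and 10.9-fold over the fitted range. Its libraries held 0.56, 1.03 and 2.13 CPM (lowest, median and highest of 10) at 3 months and 5.93, 15.0 and 12.5 CPM in mice 57, 58 and 59 at 28 months. All 3 old libraries were above all 10 young ones. In cerebellum (slope 0.115, SE 0.0118) the sum was 0.62, 2.01 and 3.63 CPM at 3 months and 14.7, 13.1 and 12.2 CPM in the same old mice, again with no overlap. Caudate putamen (slope 0.118, SE 0.0142) went from 0.216, 1.09 and 2.51 CPM in 9 libraries to 5.10, 8.92 and 10.5 CPM. The cerebellar maximum was a library of 42.6 CPM at 21 months. Olfactory bulb had the lowest slope of the sum, 0.0287 (SE 0.0135). Its 3-month libraries reached from 0.452 to 25.5 CPM around a median of 4.28, with mouse 33 at the top, and overlapped the 5.64, 8.45 and 9.71 CPM of 28 months. Without that library the slope was 0.0595 (SE 0.0113), still the lowest of the 15 regions. H2-Q7 there went from 0.0166 (SE 0.0151) to 0.0555 (SE 0.0122) and H2-Q6 from 0.0403 (SE 0.0139) to 0.0625 (SE 0.0129).

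H2-T23, the Qa-1 chain, had its steepest slopes in subventricular zone (0.0584, SE 0.00958), cerebellum (0.0451, SE 0.00729) and choroid plexus (0.0419, SE 0.00615). In subventricular zone it was 2.96, 4.73 and 8.22 CPM in 10 libraries of 3 months and 5.86, 11.1 and 29.3 CPM in mice 57, 58 and 59 at 28 months, with mouse 57 inside the young range. Without the library of mouse 59 that slope was 0.0499 (SE 0.00924). In cerebellum H2-T23 was 3.06, 3.74 and 5.32 CPM at 3 months and 7.94, 7.44 and 7.95 CPM at 28 months, with no overlap. Its slope was near 0 in posterior hippocampus, at 0.00781 (SE 0.0088) with and 0.000934 (SE 0.0078) without the library of mouse 5, and below 0 in olfactory bulb (-0.00304, SE 0.00782), where it was 0.0122 (SE 0.00628) without mouse 33. H2-T22 spanned a narrow range of slopes, from -0.00129 (SE 0.0034) in olfactory bulb to 0.022 (SE 0.00558) in corpus callosum. Without mouse 33 the olfactory bulb slope of H2-T22 turned to 0.00357 (SE 0.00289), and without mouse 5 that of posterior hippocampus turned from 0.000889 (SE 0.00444) to -0.00128 (SE 0.00417). In corpus callosum it was 11.5, 15.7 and 18.5 CPM in 10 libraries of 3 months and 20.5, 26.7 and 26.3 CPM in mice 57, 58 and 59, with no overlap. H2-Q4 could be fitted only without the filter on low counts, and then its slope was above 0 in 15 of 15 regions. The lowest was 0.0106 (SE 0.0272) in pons and the highest 0.128 (SE 0.0291) in posterior hippocampus, and in pons and thalamus the slope was smaller than its error.

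**Figure D2:**
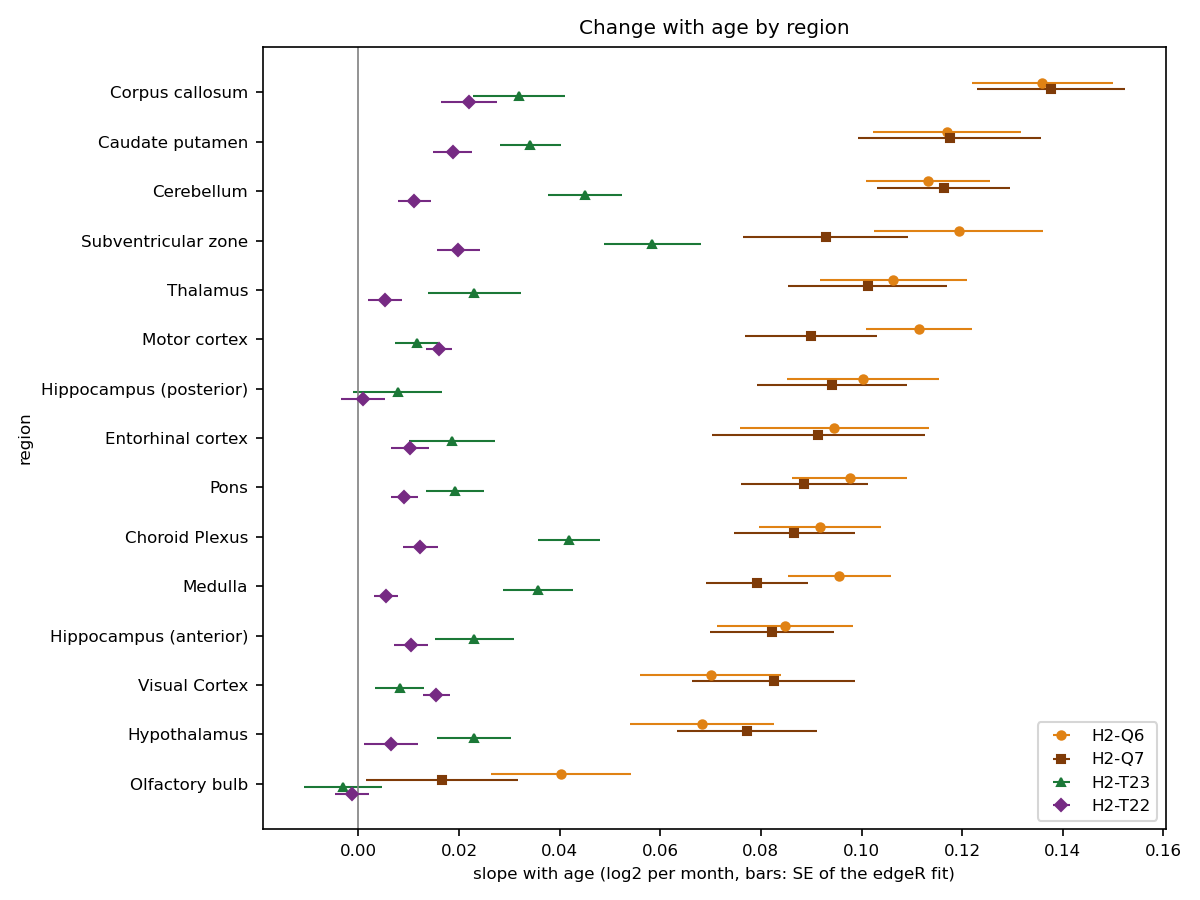
Slope with age in log2 units per month (horizontal axis, with bars of 1 standard error) in each of the 15 regions (vertical axis) for H2-Q6, H2-Q7, H2-T23 and H2-T22. H2-Q6 lies between 0.0403 and 0.136 and H2-Q7 between 0.0166 and 0.138, both lowest in olfactory bulb, while H2-T22 stays between -0.00129 and 0.022, with its olfactory bulb value at 0.00357 without mouse 33.

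Regions were compared within a mouse, as a region's log2 CPM minus the mean of the other regions of the same animal, with 2-sided sign-flip permutation tests over mice and adjustment over 90 comparisons. The H2-Q6 plus H2-Q7 sum was highest in hindbrain tissue. It was higher by 0.76 log2 units in cerebellum (SE 0.0773, n = 58 mice), 0.76 in pons (SE 0.0786, n = 51) and 0.60 in medulla (SE 0.054, n = 58), each with an adjusted p of 2.81e-05, the smallest that 100000 permutations could give here. Its libraries held 0.62, 8.76 and 42.6 CPM (lowest, median and highest) in cerebellum, 1.45, 6.73 and 25.8 in pons and 0.749, 7.36 and 18.0 in medulla. The sum was lowest in caudate putamen, at 0, 3.47 and 16.0 CPM (difference -0.50, SE 0.092, adjusted p 2.81e-05), and in entorhinal cortex, at 0, 3.24 and 17.2 CPM (-0.50, SE 0.111, adjusted p 0.000103). The libraries of all regions overlapped. In all, 10 of 15 regions differed from the others in the sum, with choroid plexus nearest to 0 (0.012, SE 0.0931). Along the order of the sum's levels, medulla was above hypothalamus, the next region, by 0.34 (SE 0.0832, n = 54, adjusted p 0.00399 over 84 pairs, permutation test). The other 13 neighbouring pairs did not pass the test. In the 3-month mice alone 2 regions differed in the sum, with at most 10 mice a region, which limits how small p can be.

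H2-T23 had another order of regions. It was highest in motor cortex, at 11.2, 18.0 and 28.5 CPM (difference 1.20, SE 0.0404, n = 59), followed by corpus callosum at 4.14, 13.8 and 31.4 CPM (0.93, SE 0.0713, n = 57) and visual cortex at 8.91, 13.1 and 21.0 CPM (0.75, SE 0.0421, n = 56), each with an adjusted p of 2.81e-05 in the permutation test. It was lowest in thalamus at 0, 4.38 and 12.5 CPM (-0.87, SE 0.0899) and anterior hippocampus at 1.89, 5.02 and 9.45 CPM (-0.72, SE 0.0647), with the same adjusted p. Cerebellum, the top region of the sum, had an H2-T23 difference of -0.58 (SE 0.0596, adjusted p 2.81e-05, permutation test). Visual cortex was above olfactory bulb, the region after it, by 0.49 (SE 0.0687, n = 55, adjusted p 0.00084, permutation test), and the other 13 neighbouring pairs did not pass. The T cell receptor gene Trbc2 had its highest medians in the same 3 regions, 16.9 CPM in motor cortex, 8.89 in corpus callosum and 6.29 in visual cortex, against at most 1.56 in any other. Of the other 4 genes of the T cell list, Cd3d and Cd3g had medians of 0 in those 3 regions, Cd2 at most 0.311 and Cd3e at most 0.191 CPM, while Cd3e reached 0.742 in pons. At 3 to 21 months the summed T cell list was 10.4 to 21.5 CPM in females and 12.6 to 25.0 in males in motor cortex, and 0.164 to 2.82 and 0 to 4.66 in medulla. The part of T cells in the H2-T23 level was not tested.

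H2-T22 lay within a narrower band than H2-T23, although 13 of 15 regions passed. It was highest in pons at 17.3, 25.7 and 33.1 CPM (0.36, SE 0.0231) and hypothalamus at 15.2, 25.9 and 38.6 CPM (0.36, SE 0.0437), and lowest in caudate putamen at 8.72, 14.5 and 20.6 CPM (-0.53, SE 0.0289), each with an adjusted p of 2.81e-05 in the permutation test. Motor cortex was high for H2-T22 and H2-T23 (0.30, SE 0.0182, for H2-T22) and low for the H2-Q6 plus H2-Q7 sum (-0.38, SE 0.0485), all with that adjusted p. Olfactory bulb was above subventricular zone, its neighbour in the order, by 0.17 (SE 0.0419, adjusted p 0.00399, permutation test). For H2-Q4, 3 of 15 regions differed: olfactory bulb (0.29, SE 0.0877, adjusted p 0.00311), medulla (0.16, SE 0.0631, adjusted p 0.0246) and thalamus (-0.18, SE 0.0562, adjusted p 0.0048), by the same permutation test, and no neighbouring pair passed.

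**Figure D3:**
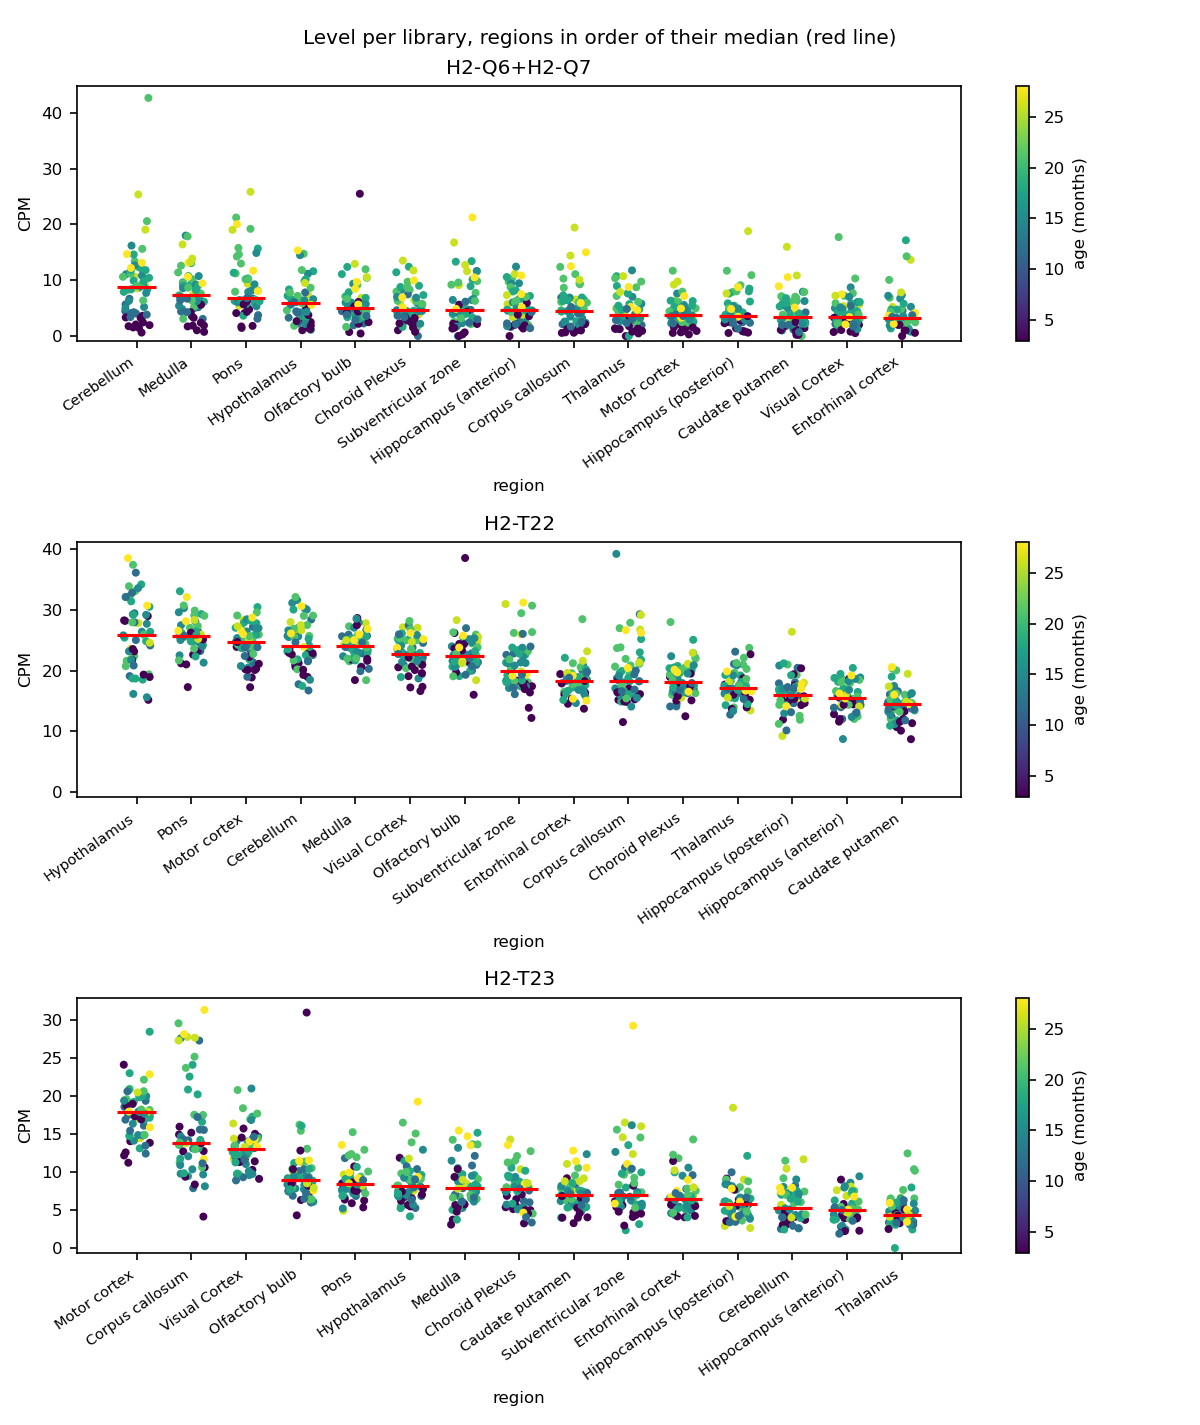
CPM of each library (vertical axis) in the 15 regions (horizontal axis, ordered by median) for H2-Q6 plus H2-Q7, H2-T22 and H2-T23, with points coloured by age in months. Cerebellum, medulla and pons lead the sum, whereas motor cortex, corpus callosum and visual cortex lead H2-T23, with medians of 18.0, 13.8 and 13.1 CPM.

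Sexes were compared at 3 to 21 months, the ages with both. At 3, 15, 18 and 21 months the males were mice 16 to 36 and the females mice 37 to 56. At 12 months the numbers of the sexes were interleaved. The labels do not say whether number ranges were handled apart. At the ages other than 12 months, sex and number range therefore cannot be told apart. Averaged over the 15 regions, H2-Q6 and H2-Q7 were lower in males, and no such difference was detected for the other 3 genes. The mean level of the sum was 5.61 CPM in the 25 females and 4.63 CPM in the 26 males. The difference was -0.34 log2 units, or 1.27-fold higher in females (adjusted p 0.0251 over 6 values, 2-sided permutation test of sex within age, lower in males in 14 of 15 regions). H2-Q6 alone differed by -0.29 (adjusted p 0.0412, 15 of 15 regions) and H2-Q7 by -0.35 (adjusted p 0.0251, 13 of 15 regions), by the same permutation test. Leaving out each of the 51 mice in turn, an alternative added after seeing the data, the sum's difference lay between -0.39 and -0.31 and H2-Q7's between -0.39 and -0.32, and both passed the test every time (adjusted p at most 0.0472, permutation test). The H2-Q6 difference lay between -0.34 and -0.25, and it missed the threshold without any one of 20 of the 51 mice (adjusted p at most 0.0708, permutation test). From the mice's own means the interval (95%) of the sum's difference was -0.58 to -0.092. Mouse by mouse the sexes overlapped at every age. The sum was 6.63, 7.50 and 9.14 CPM in 5 females and 4.03, 5.15 and 6.90 CPM in 5 males of 18 months. At 3 months it was 1.55, 2.11 and 2.79 CPM in females and 1.17, 2.04 and 3.48 CPM in males, at 12 months 2.72, 4.24 and 4.51 against 2.41, 3.42 and 4.17 CPM, and at 15 months 3.15, 5.46 and 7.62 against 3.12, 5.56 and 9.74 CPM. At 21 months it was 5.11, 8.45 and 12.9 CPM in 5 females and 3.56, 6.65 and 9.88 CPM in 6 males. Female medians were thus above male medians at 12, 18 and 21 months, with almost no gap at 3 and 15 months. Within mice 16 to 56, which leaves out the 12-month mice, all 3 missed the threshold: the sum (-0.35, adjusted p 0.0627), H2-Q7 (-0.36, adjusted p 0.0627) and H2-Q6 (-0.31, adjusted p 0.0806), by the permutation test. H2-Q6 also missed it without shallow libraries (-0.27, adjusted p 0.054, permutation test).

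For H2-T22 the averaged difference was 0.01 (adjusted p 0.448, permutation test, interval -0.016 to 0.0373), with means of 20.4 CPM in females and 20.7 in males. For H2-T23 it was -0.05 (adjusted p 0.21, interval -0.109 to 0.0247), with 8.73 and 8.66 CPM, and for H2-Q4 -0.10 (adjusted p 0.115, interval -0.194 to 0.0143), with 0.159 and 0.129 CPM, by the same permutation test. Region by region, edgeR's quasi-likelihood test called few of these. H2-Q6 was called lower in males in motor cortex (-0.51, SE 0.146, adjusted p 0.0364), as was the sum (-0.47, SE 0.136, adjusted p 0.0379), and H2-Q7 was called in 0 of 15 regions, with an unadjusted p below 0.05 in 6 and 1 call by DESeq2. Over all genes and regions 1.47% of pairs were called lower in males and 1.23% higher, and in motor cortex 1.86% of genes were called lower. In motor cortex the sum was 0.909, 3.83 and 11.7 CPM in 25 female libraries and 0.293, 2.66 and 7.61 CPM in 26 male libraries, which overlapped. In the regional fits of sex 11 mice were left out in turn, and without mouse 16, 19, 40 or 52 this call was lost. In medulla H2-T23 was lower in males (-0.42, SE 0.11, adjusted p 0.00433) and H2-T22 too (-0.13, SE 0.0381, adjusted p 0.0114), in a region in which 13.3% of all genes tested were called lower in males. H2-T23 there was 3.09, 9.10 and 15.2 CPM in 24 females and 3.74, 6.71 and 10.5 CPM in 26 males. In hypothalamus H2-T22 was higher in males (0.27, SE 0.0787, adjusted p 0.0338), at 15.6, 22.5 and 33.6 CPM in 24 females and 15.2, 29.2 and 37.5 CPM in 25 males, where 2.91% of genes were called higher. All 3 pairs of groups overlapped. Among the same 11 mice, without mouse 38, 39 or 52 the hypothalamus call of H2-T22 was lost (adjusted p 0.0517 to 0.055, edgeR). Summed microglia markers were 234, 340 and 490 CPM in female and 232, 322 and 465 CPM in male medulla, and 269, 307 and 338 against 270, 303 and 343 CPM in motor cortex. The sexes overlapped in this list, which was called lower in males in 1 of 75 pairs. Genes of other lists were called by sex too, for some lists in several regions. In hypothalamus, the region of the H2-T22 call, the markers Gfap (-0.79), Csf1r (-0.12) and Ttr (-1.73) were called lower in males. Rbfox3 (0.14) was called higher there, and 1.97% of all genes tested were called lower. In motor cortex, the region of the H2-Q6 call, Cd163 (-0.67) was called lower and Rbfox3 (0.086) and Gja1 (0.10) higher. There 1.69% of all genes tested were called higher. All 5 red blood cell markers were called higher in males in medulla, the region of the H2-T22 and H2-T23 calls, and none elsewhere, with a summed level of 1.37, 6.21 and 106.8 CPM in females and 1.16, 16.7 and 277.4 CPM in males there. In medulla 9.18% of all genes tested were called higher in males. All 5 oligodendrocyte markers were called lower in males in posterior hippocampus alone, where 1.59% of genes were called lower. Lilrb4a, listed with the class I receptors though its binding of class I is not shown here, was called lower in males in medulla and choroid plexus. The B and plasma cell marker Jchain and the T cell marker Cd3e were called lower in males in choroid plexus. The part of these cells in the sex differences was not tested. The classical chains and beta-2-microglobulin were called lower in males in 6 of 45 pairs and higher in 0, with a median difference of -0.0774 against 0.000243 over all pairs.

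**Figure D4:**
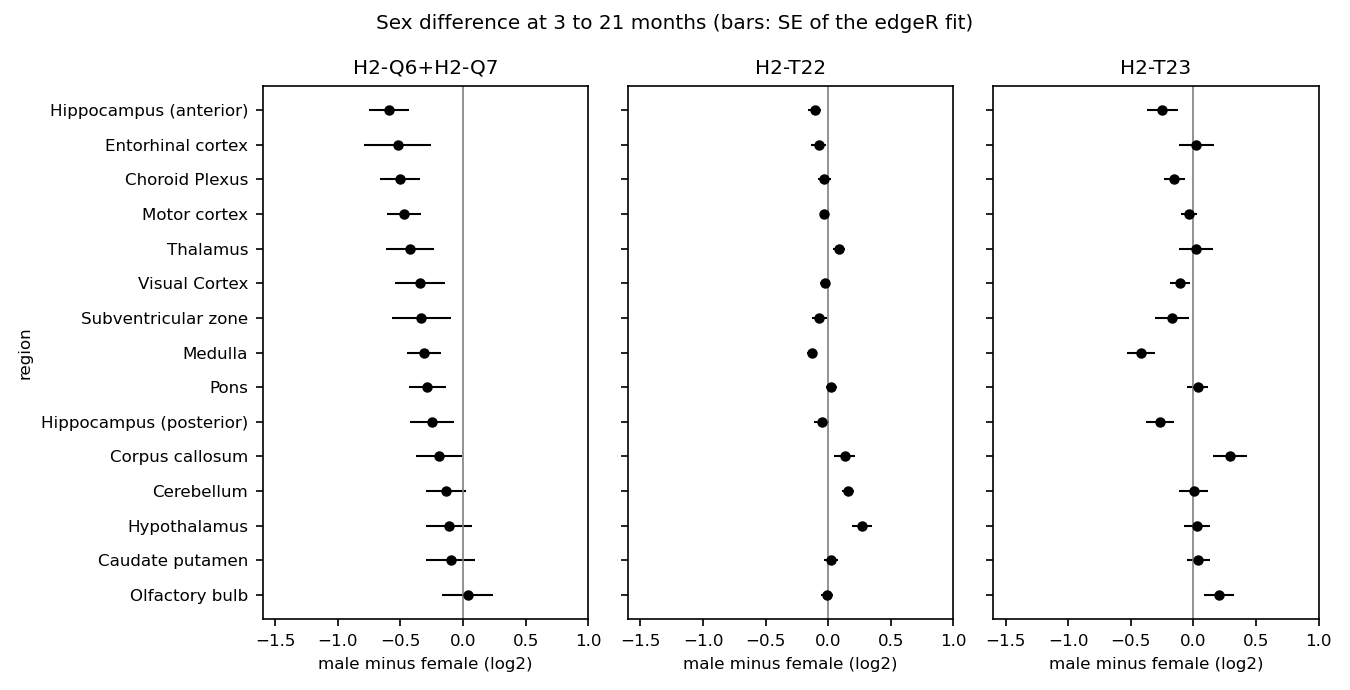
Male minus female difference in log2 units at 3 to 21 months (horizontal axis, with bars of 1 standard error) in each region (vertical axis) for H2-Q6 plus H2-Q7, H2-T22 and H2-T23. The sum lies below 0 in 14 of 15 regions, and olfactory bulb, the other region, went from 0.0378 to -0.17 without mouse 33, and the T-region genes lie on either side of 0.

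The slope with age did not pass the test of a difference between sexes in any region for any member that passed the filter. edgeR called the age by sex term in 0 of 15 regions for H2-Q6, H2-Q7, the sum, H2-T22 and H2-T23, where 0.0756% of all gene and region pairs were called. DESeq2 called it in 0 regions for the same genes, and in edgeR an unadjusted p below 0.05 was reached in 0, 1, 2, 0 and 1 regions in that order. Averaged over regions, the slope of the sum differed by -0.0135 log2 units per month (adjusted p 0.735, permutation test, interval -0.0525 to 0.0265). For H2-T23 the averaged difference was -0.00623 (adjusted p 0.524, interval -0.0178 to 0.00516) and for H2-T22 0.000689 (adjusted p 0.774, interval -0.00344 to 0.00506), by the same test. For H2-Q4, which was not fitted region by region, it was -0.0158 (adjusted p 0.333, permutation test, interval -0.0318 to 0.00116).

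Once age and sex were taken out within each region, the genes that moved most like the members were other class I and interferon-induced genes. Likeness is the Pearson correlation of residual log2 CPM within a region, averaged over the 15 regions, among 11958 candidates of at least 5 CPM on average. Libraries of a region share dissection and differ in depth, and the highest libraries were kept in, so likeness is a description. Reads that fit several genes could also add to it. H2-T22 shared stretches with H2-T23, H2-Q6 and H2-T23 with H2-D1, and H2-Q4 with H2-K1. For the H2-Q6 plus H2-Q7 sum the leading genes were H2-K1 (0.661, between 0.468 and 0.788 in single regions), H2-D1 (0.553), B2m (0.543), Irgm2 (0.508) and Igtp (0.462), the last pair encoding interferon-induced GTPases. The median candidate stood at -0.003. For H2-T23 the leading genes were Irgm1 (0.473), H2-K1 (0.466), H2-D1 (0.439), Ifitm3 (0.439) and B2m (0.431). For H2-T22 they included H2-T23 (0.371), H2-D1 (0.359), Irgm1 (0.33) and H2-K1 (0.308). Among the members, H2-Q6 and H2-Q7 reached 0.602, with a share of it possible from reads that fit both genes, and H2-T23 reached 0.406 with the sum. H2-T22 stood at 0.242 with the sum, 0.194 with H2-Q7 and 0.125 with H2-Q4, the last pair of values being below 0 in some regions. H2-Q4, mostly at 0 or a few reads, reached 0.278 with H2-K1, its leading candidate, and 0.282 with H2-Q6, from which nothing is read.

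Of the residual variance that age and sex left over, 37.61% lay between mice for the sum, 36.86% for H2-Q6 and 30.43% for H2-Q7, against 9.95% for H2-T23, 7.45% for H2-T22 and 10.5% for H2-Q4, differences that were not tested. Over genes of at least 5 CPM the median share was 8.52% and the 95th percentile 15.37%, with 6.97 as the number of mice in percent of libraries. H2-K1 stood at 25.47%, B2m at 23.97% and H2-D1 at 18.47%. Mouse 30, a male of 15 months, had a mean residual of 1.07 log2 units in the sum and was above the fit in 15 of 15 regions, mouse 5, a male of 26 months, had 0.81 and was above it in all 13 of its regions, and mouse 36, a male of 21 months, had 0.69, in 15 of 15. Mouse 38, a female of 15 months, had -0.88 and was above the fit in 0 of 15 regions, and mouse 16, a male of 21 months, had -0.89 and was above it in 2 of 15.

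The rest of the class I pathway was taken from lists drawn up with earlier results of these data known, and its genes carry adjusted p-values over all genes of a region from edgeR. Over all genes and regions 5.88% of pairs were called rising and 4.67% falling. The classical chains and beta-2-microglobulin were called rising with age in 39 of 45 gene and region pairs and falling in 0, with a median slope of 0.0392 against -0.000102 over all pairs. H2-K1 (mean slope 0.0413), H2-D1 (0.0391) and B2m (0.0343) each rose in 13 of 15 regions. These mean slopes lie between those of the H2-Q6 plus H2-Q7 sum and of H2-T23. Of 19 other nonclassical and class I-like genes, 15 were in the table and 11 tested, and 28 of their 124 pairs rose and 0 fell (median slope 0.00844). H2-M3, which presents formylated peptides, rose in 12 of 15 regions (0.0328), Hfe, an iron regulator, in 7 (0.0186), and Mr1, which presents vitamin B metabolites, in 7 (0.0168). Mill2, a class I-like chain, rose in 1 of 15 (0.0118). Among 8 genes of peptide loading, 40 of 120 pairs rose and 18 fell (median slope 0.00876). The peptide transporter genes Tap1 and Tap2 rose in 11 (0.0368) and 10 (0.0233) regions, the bridging factor Tapbp in 8 (0.0106), its relative Tapbpl in 6 (0.0117) and the trimming peptidase Erap1 in 5 (0.0129). The endoplasmic reticulum chaperones went the other way: Calr fell in 9 regions (-0.00687), Pdia3 in 7 (-0.00644) and Canx in 2 (-0.000864), and none of the 3 rose in any. Of 5 immunoproteasome genes, 34 of 75 pairs rose and 0 fell (median slope 0.00999). The catalytic subunits Psmb8 and Psmb9 rose in 13 (0.0465) and 12 (0.0439) regions and Psmb10 in 1 (0.00417), and the activator subunits Psme1 and Psme2 in 7 (0.00795) and 1 (0.00587). The transcription factor list had 24 rising and 2 falling of 150 pairs (median slope 0.00175). Nlrc5 rose in 9 regions (mean slope 0.0547, the largest of the list) and Irf1 in 3 (0.0125), while Nfya, a Y box subunit, passed in 0 (-0.007). Of the genes listed as class I receptors, 3 of 9 were tested and 19 of 27 pairs rose and 0 fell (median slope 0.0776). Lilrb4a rose in 11 of 15 regions (0.107) and Pirb, an inhibitory receptor for class I, in 8 of 11 (0.0667). Lilrb4a stood in this list without evidence here that it binds class I. Klrd1, Klrc1 and Klrc2, which encode the receptor chains for H2-T23, and Cd8a passed the filter in 0 regions. Of 10 interferon response genes, 99 of 150 pairs rose and 0 fell (median slope 0.0451). Olfactory bulb stood apart in these lists through the same library as before. With mouse 33 the slope of Nlrc5 there was -0.0177 (SE 0.0173), and without it 0.027 (SE 0.0148, adjusted p 0.229, edgeR). H2-K1 went from 0.0102 (SE 0.0063, adjusted p 0.292) to 0.0244 (SE 0.00426, adjusted p 3.2e-05) and Psmb8 from -0.00647 (adjusted p 0.717) to 0.0205 (adjusted p 0.0114), by the same test.

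**Figure D5:**
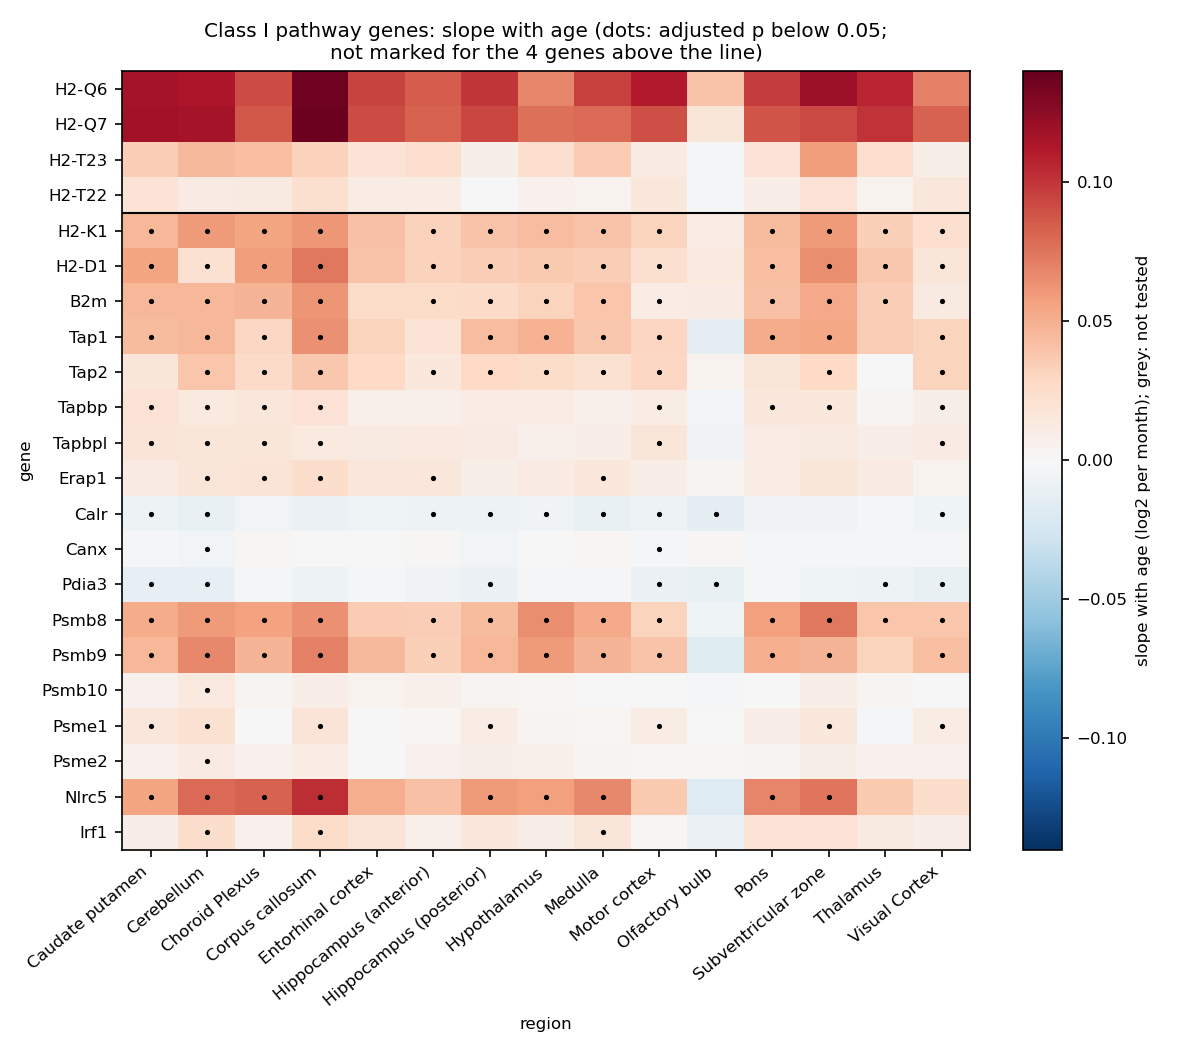
Slope with age in log2 units per month (colour) of 4 members above the line and of class I pathway genes below it (vertical axis) in the 15 regions (horizontal axis). Dots mark an adjusted p below 0.05 in edgeR for the pathway genes alone, and Calr and Pdia3 show the falling slopes.

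Markers of the cell types these tissues hold were read beside the members. Over all genes and regions 5.88% of pairs were called rising with age and 4.67% falling. Rising shares near that were 8.0% for the oligodendrocyte, 4.0% for the neuronal and 7.46% for the choroid plexus epithelium list. Nothing is read from those shares. Of the 5 microglia markers, 43 of 75 pairs rose with age and 2 fell. In corpus callosum their summed level was 350 to 440 CPM (median 403) at 3 months and 520, 575 and 705 CPM in the 3 libraries of 28 months, with no overlap. In motor cortex it was 290 to 343 CPM at 3 months and 284, 310 and 369 CPM at 28 months, so the groups overlapped there. The H2-Q6 plus H2-Q7 sum in that region was 0.293, 0.968 and 2.00 CPM in 10 libraries of 3 months and 4.93, 3.29 and 7.16 CPM in mice 57, 58 and 59, with no overlap, and its fitted difference over 25 months was 5.92-fold. In visual cortex the microglia markers were 279 to 418 CPM at 3 months and 288 to 318 CPM at 28 months, and the sum was 0.521, 1.54 and 3.28 CPM in 10 libraries of 3 months and 3.40, 2.09 and 7.49 CPM in mice 57, 58 and 59, with mouse 58 inside the young range. The part of microglia in the members' levels was not tested. Border macrophage markers rose in 1 and fell in 2 of 46 pairs, endothelial markers rose in 2 and fell in 0 of 75, oligodendrocyte markers rose in 6 and fell in 0 of 75, astrocyte markers rose in 17 and fell in 8 of 75, and neuronal markers rose in 3 and fell in 6 of 75. Lymphocyte markers were scarce, and few passed the filter: of the T cell list 1 of 9 tested pairs rose, of the NK cell list 3 of 3, all Nkg7, and of the B and plasma cell list 4 of 10, all Jchain, and none fell. Ncr1 and Gzma of NK cells had no read in 93.15% and 91.74% of libraries, and Cd3d of T cells in 78.98%. The summed NK cell list was 0 to 0.213 CPM in corpus callosum at 3 months and 0.255, 0.893 and 1.08 CPM at 28 months, and at 0 in all 10 young and all 3 old motor cortex libraries. The summed T cell list was 3.81 to 19.2 CPM in corpus callosum at 3 months and 10.6 to 12.3 CPM at 28 months, inside the young range. That sum was mostly Trbc2, with a median of 8.89 CPM in the region over all ages. The other genes of the list had medians of at most 0.311 CPM there, so the sum is no count of T cells. Red blood cell markers rose in 12 and fell in 0 of 75 pairs and choroid plexus epithelium markers rose in 5 and fell in 2 of 67. In corpus callosum the summed choroid plexus list was 6.46 to 15218 CPM at 3 months and 9.63 to 10221 CPM at 28 months, and the 2 ages overlapped. The part of these cells in the members' levels was not tested.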

How the data were processed

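Libraries of 15 brain regions from 59 mice were grouped by the region, sex and age in their labels. The deposited values are whole-number read counts per gene, in 1 table for all libraries. Per the submitters' processing notes the tools were Trim Galore 0.3.7, STAR 2.5.3a and DESeq2 with GRCm38, and the counting program and annotation are not given in the sources used here. CPM is a gene's count per 1000000 counts of its library, and 294 of 21076 genes had no read.

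Each region was fitted on its own with edgeR 4.0.16 (TMM factors, filterByExpr, quasi-likelihood test, Benjamini-Hochberg over all genes of the region) in R 4.3.3: age in months beside sex over all ages, and sex beside age as a factor, and age by sex, at 3 to 21 months. A call is an adjusted p below 0.05. The H2-Q6 plus H2-Q7 sum was an added row that replaced its 2 genes for the adjustment. Sex and region values averaged over regions or mice used permutation tests with 100000 resamples on log2 CPM (prior count 2) in Python 3.11.15. Their intervals are 95% intervals from the mice's means. On simulated counts of corpus callosum the 3 fits recovered 200 of 200 changed genes. These genes were counted more deeply than H2-Q4, H2-Q6 and H2-Q7. Their sex and age by sex changes were larger than those of the members, and their age changes larger than those of H2-T22 and H2-T23. The recovery checks the code and says nothing about power for the members. Calls among unchanged genes are not given here.

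Regions are paired by mouse, since the labels give the same mouse number to all regions of an animal, so region levels were compared within a mouse as a replicate block. Without the block the number of regions that differed was 1 for H2-Q4 and 6 for H2-Q7, against 3 and 10 with it.

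The members, the pathway and marker lists and the naming rule were chosen with earlier results of these data known. Named beside the members were, for each, the 5 genes of at least 5 CPM with the highest mean residual correlation, all genes of the classical, peptide loading and immunoproteasome lists, and of the other pathway lists the 4 with the largest mean slope in size among genes tested in at least 8 regions. Some genes these rules name are not reported here. Other genes are named where they mark a library or a count and were picked after their values had been seen. Exon lengths and transcript stretches came from GENCODE M21 and promoters from RefSeq. The alternatives tried were DESeq2 1.42.0, DESeq2-type size factors, no filter, prior count 0.5, TMM over all libraries, males alone, mice 16 to 56, 3-month mice alone, no block, and leaving out shallow libraries or 1 mouse in turn: the lowest-numbered mouse of each age and sex group and mouse 52, which made 13 mice, or 11 for the sex fits. Leaving out the 6 libraries off their region marker or the 3 highest libraries, and each of the 51 mice in turn for the averaged sex difference, was added after seeing the data.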

Additional observations from a re-analysis of the deposited data

Results flagged for a closer look

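Within groups of a sex and an age with 5 or 6 mice, 3 of 66 groups of mouse means held a mouse far from its group (gap to the nearest mouse over the group's range beyond Dixon's limit), and chance alone flags about 1 in 20. Mouse 13, a female of 12 months, had the lowest H2-Q4 mean over its regions, 0.0206 CPM, against 0.118 to 0.148 in the 4 other females of that age, at levels of few reads. Mouse 49, a female of 3 months, had the highest H2-T22 mean, 19.7 CPM, against at most 18.4 in the others. Mouse 27, a male of 18 months, had the highest H2-T23 mean, 9.51 CPM, against 8.87 to 8.99 in the others.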

How the results depend on the processing

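Of 47 results recomputed under the alternatives, 25 kept their direction and side of the threshold, with counts within 1.5 times, under every alternative run, and none of the 47 reversed. In the 3-month mice alone the regions that differed in level numbered 1 for H2-Q4, 1 for H2-Q6, 0 for H2-Q7, 2 for the sum, 8 for H2-T22 and 5 for H2-T23, and neighbouring pairs 0 for H2-Q7, the sum, H2-T22 and H2-T23. A sign-flip test over at most 10 mice limits how small p can be, so nothing is read from these lower counts. With no replicate block, H2-Q4 had 1 and H2-Q7 6 such regions, and neighbouring pairs fell to 0 for H2-Q7 and the sum; the block changed no other call by over 1.5 times. TMM factors over all libraries gave 1 differing neighbouring pair for H2-Q6, 6 for H2-T22 and 2 for H2-T23.

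Within mice 16 to 56 the averaged sex difference was -0.31 for H2-Q6 (adjusted p 0.0806, permutation test), -0.36 for H2-Q7 (0.0627) and -0.35 for the sum (0.0627). Regional sex calls there were 0 for H2-Q6 and the sum and 1 for H2-T22, the age slope of H2-T23 was called in 4 regions, and over all genes 14246 pairs were called with age against 22658, and 102 for age by sex against 160. Without shallow libraries the H2-Q6 sex difference was -0.27 (adjusted p 0.054, permutation test). DESeq2 gave H2-Q7 1 regional sex call, males alone gave H2-T22 5 age calls and 13139 pairs with age over all genes, and no filter gave 380 age by sex pairs.

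Leaving out each of 51 mice, the averaged sex difference of H2-Q6 ranged from -0.34 to -0.25 and missed the threshold without any one of 20, while H2-Q7 and the sum stayed past it. With 1 of 11 mice (sex) or 13 mice (age, regions) left out, regional sex calls ranged from 0 to 1 for H2-Q6, H2-Q7 and the sum and from 1 to 2 for H2-T22, differing neighbouring pairs from 0 to 1 for H2-Q6 and from 1 to 2 for H2-T22 and H2-T23, and age by sex pairs over all genes from 74 to 200. The causes of these changes were not tested. Counts of the members' age calls are descriptions, since that contrast chose the genes. Depth limits H2-Q4, with no read in 48.41% of libraries, and small sex differences within a region.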
